A study of Mus musculus with 4 samples.

Results

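The thin filament and titin genes followed here are 9 genes chosen by symbol: the actins Actc1 and Acta1, the troponins Tnnt2, Tnni3, Tnni1 and Tnnc1, the tropomyosins Tpm1 and Tpm2, and titin, Ttn. All 9 of 9 were found on the arrays through the RefSeq accession of their probes, with 17 probes among them, and all 9 passed the filter on dim probes, among 22925 features tested in the series. The hearts came from male mice 5 days after the left anterior descending coronary artery was tied off, an operation that causes a myocardial infarction, and both genotypes had it. Knock-out mice (KO, VE-Cad-Cre-S1pr1 fl/fl) carry a Cre recombinase under the VE-cadherin promoter, which is active in endothelial cells, and floxed alleles of S1pr1, which encodes a sphingosine-1-phosphate receptor. The wild-type mice (WT) are described only as their counterparts. Whether they carried the floxed alleles or the Cre, and the age of the mice, are not given in the sources used here. Total RNA of the heart was hybridised to 1-colour Agilent arrays, 2 per genotype: KO replicates 3 and 4, and WT replicates 1 and 3. These replicate numbers are the ones that follow KO or WT in the sample titles, and a shared number is not stated to mark a pair.

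A sarcomere, the contractile unit of heart muscle, shortens when myosin pulls on thin filaments. A thin filament is a helical polymer of actin carrying tropomyosin and the troponin complex, in which troponin C binds calcium, troponin I holds the filament off and troponin T ties the complex to tropomyosin. Titin spans from the Z-disc to the M-band and acts as the spring of the sarcomere. The adult mouse ventricle builds these from Actc1, Tpm1, Tnnt2, Tnni3, Tnnc1 and Ttn. The fetal heart also uses Tnni1, the troponin I of slow skeletal muscle, and more of the skeletal actin Acta1 and of beta-tropomyosin, Tpm2. In rodents the stressed adult heart takes up Acta1 again.

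The array level used throughout is the log2 processed signal of the gene's brightest probe, relative to the 75th percentile of its own array, and a difference is KO minus WT on that scale. Precision is limited by having 4 arrays. No label ties an array to its own animal, so the p-values cover the spread among these samples alone, and part of it may be technical. The slide and the scan were shared by all 4 arrays, with KO replicate 4, KO replicate 3, WT replicate 3 and WT replicate 1 at positions 1, 2, 3 and 4, so an effect of position cannot be told apart from genotype. WT replicate 1 stood apart: 54.3% of its probes were well above background, against 69.4% to 73.4% on the other arrays. Its negative control spots also varied most, with a standard deviation of 9.84, against 0.85 to 3.95 on the other arrays. The difference of each member is therefore also given without WT replicate 1. The targeted gene S1pr1 was at -2.69 and -2.30 on the KO arrays and at 0.43 and 0.95 on the WT arrays. The heart label was checked against 18 cardiomyocyte markers outside the thin filament, and 18 of 18 were well above background on every array.

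The 6 adult genes (Actc1, Tpm1, Tnnt2, Tnnc1, Tnni3 and Ttn) had a higher mean in KO hearts, by 0.76 to 2.66, but none passed the test. WT replicate 1 was the lowest array for 6 of these 6 genes, and without it the differences were -0.03 to 0.30. Without WT replicate 3 instead, they ran from 1.46 for Actc1 to 5.17 for Tnni3. With 2 WT arrays, which of them is the typical one cannot be told. WT replicate 3 lay between the KO arrays for 6 of 6. The gap between the WT arrays was 1.41 to 5.02, larger than the difference between genotypes for each gene, while KO replicate 3, KO replicate 4 and WT replicate 3 stayed within 0.55 to 0.99 of each other. Of the 3 remaining members, Tpm2 was lower in KO hearts, Tnni1 was dim on all arrays, and Acta1 differed most between the KO arrays. At an adjusted p of 0.05 in limma, 0 of the 9 members were called, as were 0 of 22925 features (0.00%), and the adjusted p of the members ran from 0.740 to 0.988. Without correction 0 of 9 members had a p under 0.05, against 2.76% of all features. For 2 of 9 members both KO arrays lay on the same side of both WT arrays (no overlap), against 34.4% of all features. Of these, Tnni1 was higher in KO, as were 18.3% of features, and Tpm2 was lower in KO, as were 16.1%.

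Over the 9 members 8 had a higher mean in KO and 1 a lower mean, with a median difference of 1.08, beside a median of 0.07 over all features. Without WT replicate 1 the count was 6 higher and 3 lower. Between the arrays numbered 3 alone it was 2 higher and 7 lower. That comparison leaves out WT replicate 1 and KO replicate 4, the lowest and the highest array for each of the 6 adult genes. As WT replicate 3 lay between the KO arrays for all 6, KO replicate 3 had to be below it. The sign for these 6 genes is thus not a separate check. WT replicate 1 was the lowest array for 7 of 9 members and for 41.7% of all features. KO replicate 4 was the highest array for 7 of 9 members and for 10513 of 22925 features. In RNA from whole tissue, fewer cells of a type and less RNA per cell cannot be told apart.

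**Figure D1:**
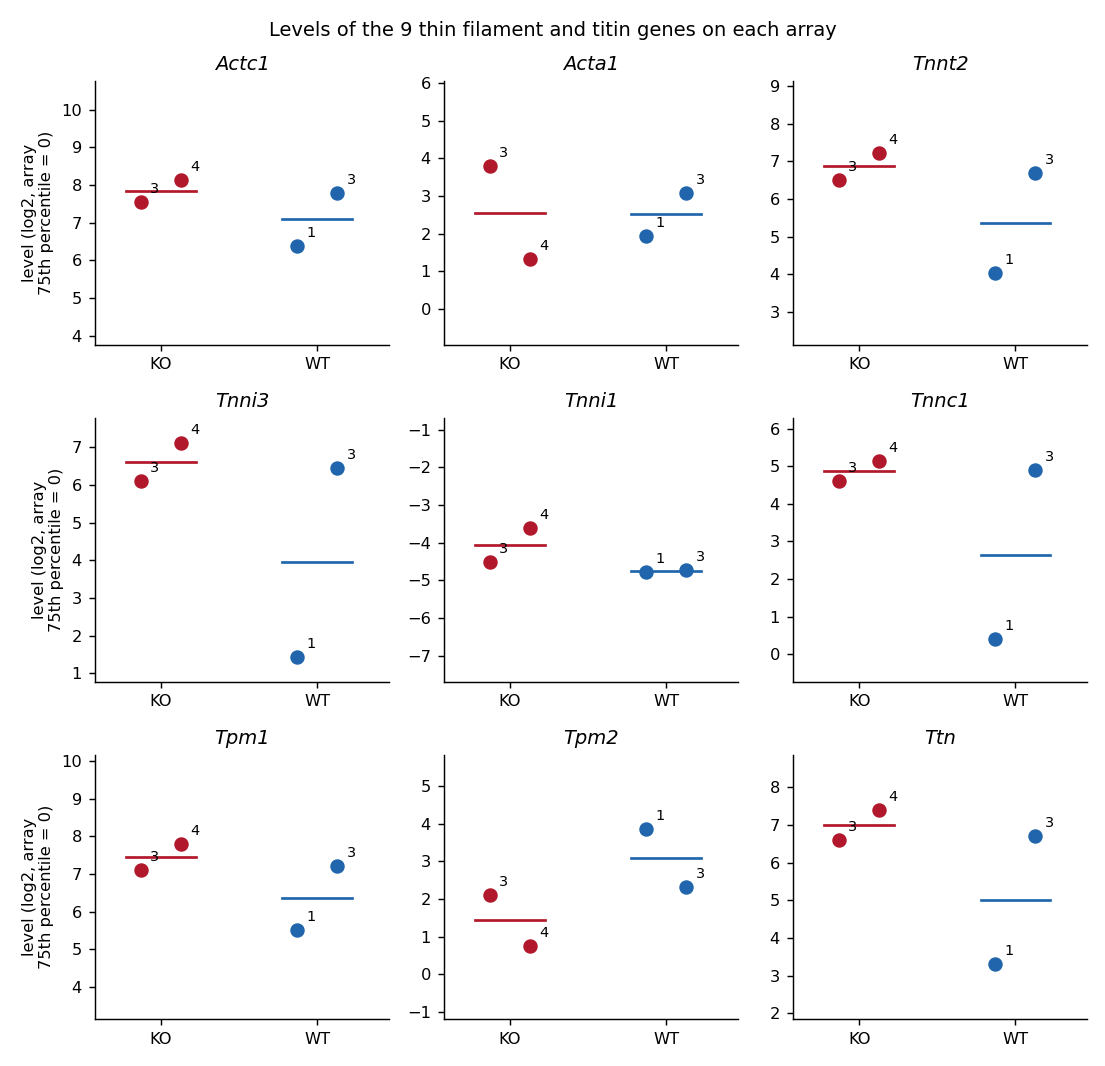
Level of each of the 9 genes on each array (log2, 75th percentile of the array at 0), with KO at the left and WT at the right of each panel. Points are arrays marked with their replicate number, lines are genotype means, and all panels span the same number of log2 units. WT replicate 1 sits lowest for the 6 adult genes and highest for Tpm2.

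Actc1, the main actin of the adult heart, had processed signals of 175662 and 174452 on KO replicates 3 and 4, against 92654 and 189315 on WT replicates 1 and 3. Its levels were 7.54 and 8.14 in KO hearts and 6.38 and 7.79 in WT hearts. Only WT replicate 1 was low, and the genotypes overlapped. The difference was 0.76 (SE 0.60, 95% interval -0.85 to 2.37, limma adjusted p = 0.740), and 0.05 without WT replicate 1. No spot was marked as saturated, and the highest processed signals of the arrays were 172688 to 189315, of which the highest was Actc1 itself on WT replicate 3. The part of this ceiling in the small spread of Actc1 was not tested.

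Acta1, the skeletal muscle actin, did not follow Actc1. Its levels were 3.79 and 1.32 in KO hearts and 1.95 and 3.08 in WT hearts. The KO arrays were at the top and the bottom of the range, 2.47 apart, with both WT arrays between them. Means ± SD (n = 2 each) were 2.56 ± 1.75 in KO and 2.52 ± 0.80 in WT. They differed by 0.04 (SE 0.97, 95% interval -2.57 to 2.65, limma adjusted p = 0.988). Leaving out KO replicate 4 gave 1.28, leaving out KO replicate 3 gave -1.20 and leaving out WT replicate 1 gave -0.53. The actins are nearly identical in coding sequence, and the position of each probe in its transcript was not determined here, so signal shared between Actc1, Acta1 and other actins was not tested.

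The stretches upstream of the RefSeq starts of both actins are shown because both carry a CArG box, the binding motif of serum response factor. They run 5′ to 3′ along the gene and come from RefSeq in the GRCm38.p6 build, with 250 bases each. Capitals mark a CArG box, an M-CAT motif (CATTCC) or a TATA box (TATAAA) on either strand.
Actc1, chr2:114052876-114053125, minus strand: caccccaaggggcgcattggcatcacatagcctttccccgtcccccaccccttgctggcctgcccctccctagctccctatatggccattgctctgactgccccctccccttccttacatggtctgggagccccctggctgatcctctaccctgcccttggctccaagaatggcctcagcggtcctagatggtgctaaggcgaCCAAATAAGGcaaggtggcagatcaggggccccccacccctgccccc
Acta1, chr8:123894776-123895025, minus strand: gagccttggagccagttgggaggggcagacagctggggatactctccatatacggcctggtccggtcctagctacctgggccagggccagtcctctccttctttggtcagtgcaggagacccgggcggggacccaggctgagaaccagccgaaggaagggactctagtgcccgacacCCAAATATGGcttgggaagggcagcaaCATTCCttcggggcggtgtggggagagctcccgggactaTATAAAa
The CArG box began 47 bases upstream of the Actc1 start and 73 bases upstream of the Acta1 start. Among the 9 members, only these 2 had a match in this window, against 1.47% of 32851 windows of the same length. Acta1 also held an M-CAT motif 46 bases and a TATA box 7 bases upstream, which Actc1 did not hold here. TATAAA was in 12.4% of all windows. A match is a description of letters and not of binding.

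The troponins held the largest gap between the WT arrays. Tnni3, the adult cardiac troponin I, was at 6.11 and 7.10 in KO hearts and at 1.44 and 6.46 in WT hearts. WT replicate 1 was 5.12 below the mean of the other 3 arrays, which is 34.8-fold, and WT replicate 3 lay between the KO arrays. The genotype difference was 2.66 (SE 1.76, 95% interval -2.06 to 7.38, limma adjusted p = 0.740). It was 0.15 without WT replicate 1, 5.17 without WT replicate 3 and -0.34 between the arrays numbered 3.

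Tnnc1, the calcium-binding troponin C of heart and slow muscle, showed the same order of arrays, at 4.60 and 5.15 in KO and 0.40 and 4.90 in WT. Its difference of 2.22 (SE 1.56) came to -0.03 without WT replicate 1. Tnnt2, cardiac troponin T, was at 6.52 and 7.23 in KO and 4.04 and 6.69 in WT, a difference of 1.51 (SE 0.98) that was 0.19 without WT replicate 1. WT replicate 1 was thus low in all 3 adult troponins, by 22.4-fold for Tnnc1 and 6.85-fold for Tnnt2 against the other 3 arrays. Both had limma adjusted p = 0.740.

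Tnni1, the troponin I of the fetal heart, was close to background. Its processed signals were 41.0 and 50.3 on the KO arrays and 40.9 and 32.3 on the WT arrays, and it was well above background on 3 of 4 arrays, not on WT replicate 1. The levels were -4.52 and -3.62 in KO and -4.77 and -4.73 in WT. The genotypes did not overlap, with a difference of 0.68 (SE 0.43, 95% interval -0.48 to 1.83, limma adjusted p = 0.740). It was 0.66 without WT replicate 1, 0.23 without KO replicate 4 and 1.13 without KO replicate 3. On WT replicate 1 the lowest level well above background was -4.39, above the Tnni1 level of 3 of the 4 arrays. In the GRCm38.p6 table Tnni1 and Tnnt2 lie on chromosome 1 with 1 gene between them, and Tnni3 lies next to Tnnt1, the slow skeletal troponin T, on chromosome 7. Tnnt1 was at 0.38 and 1.64 in KO and -1.48 and 0.57 in WT, again with WT replicate 1 as the lowest array. It differed by 1.46, and by 0.44 without WT replicate 1.

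The brightest probes of the tropomyosins differed in opposite directions over all 4 arrays, and neither passed the test. Tpm1, the alpha-tropomyosin that the adult heart uses, was at 7.12 and 7.79 in KO hearts and 5.52 and 7.22 in WT hearts for its brightest probe, a difference of 1.08 (SE 0.69, 95% interval -0.77 to 2.93, limma adjusted p = 0.740) that was 0.23 without WT replicate 1. Tpm2, beta-tropomyosin, was at 2.12 and 0.77 in KO and 3.87 and 2.31 in WT. Both KO arrays were below both WT arrays, though KO replicate 3 and WT replicate 3 were 0.19 apart. The difference was -1.65 (SE 0.76, 95% interval -3.70 to 0.40), with an unadjusted p = 0.0903 in limma, the smallest of the 9 members, and adjusted p = 0.740. It was -0.87 without WT replicate 1 and -0.97 without KO replicate 4. Between the arrays numbered 3 the difference was -0.10 for Tpm1 and -0.19 for Tpm2.

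The 5 probes of Tpm1 disagreed with each other. The brightest probe and a second one (A_55_P2187043) carry the accession NM_001164248, and both were lowest on WT replicate 1 and highest on KO replicate 4. The probes for NM_001164249 and NM_001164251 did the reverse. For NM_001164249 the levels were 1.15 and -0.21 in KO and 2.81 and 0.92 in WT, and for NM_001164251 they were -2.55 and -3.35 in KO and -0.46 and -2.14 in WT. These 2 probes were highest on WT replicate 1 and lowest on KO replicate 4, as were both Tpm2 probes. The probe for NM_001164255 stayed within a range of 0.88. Differences ran from -1.66 to 1.08 over the 5 probes, none called (adjusted p over all probes kept 0.732 to 0.784 in limma). Tpm1 makes many transcripts in muscle and non-muscle cells, and which of them each probe reads was not determined here, so the gene's value rests on the choice of probe: the mean of its probes differed by -0.14.

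**Figure D2:**
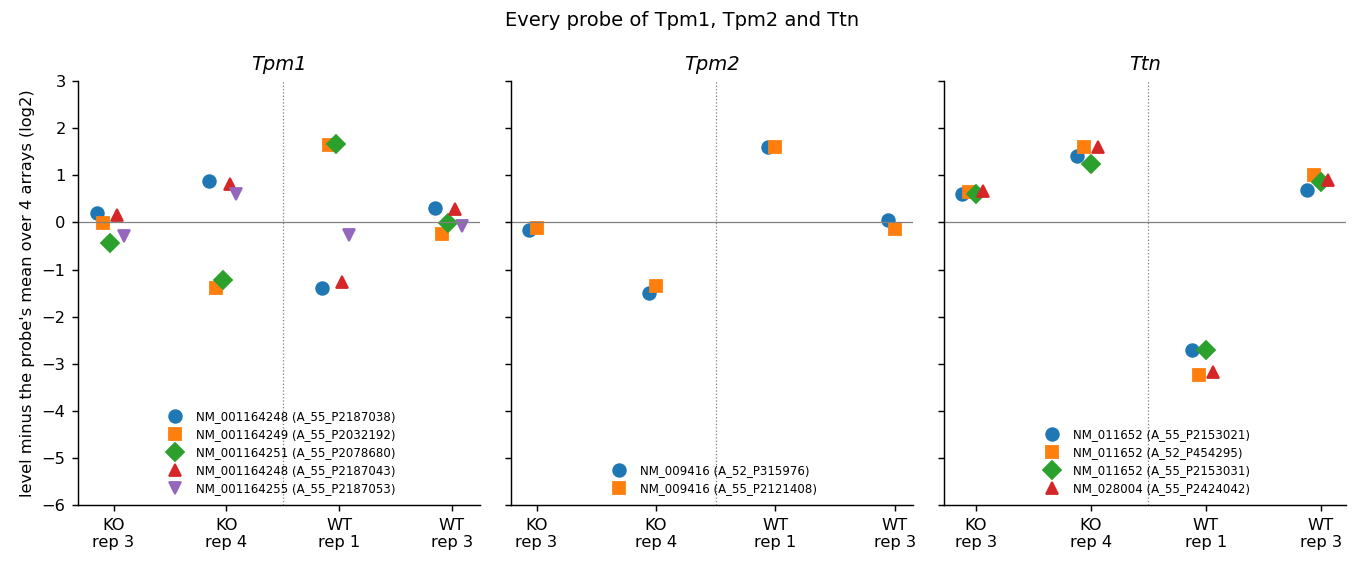
Level of every Tpm1, Tpm2 and Ttn probe on each array, minus the mean of that probe over the 4 arrays (log2), with KO at the left of the dotted line and WT at the right. The 4 Ttn probes sit together, lowest on WT replicate 1, while the Tpm1 probes split, 2 of them sitting where both Tpm2 probes sit.

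The upstream stretches of this pair are shown because the brightest probes of Tpm1 and Tpm2 order the arrays differently. They have the same source, length and marks as those of the actins. Only 1 window was listed for each gene, although Tpm1 makes many transcripts. A link between these letters and the levels was not tested.
Tpm1, chr9:67049214-67049463, minus strand: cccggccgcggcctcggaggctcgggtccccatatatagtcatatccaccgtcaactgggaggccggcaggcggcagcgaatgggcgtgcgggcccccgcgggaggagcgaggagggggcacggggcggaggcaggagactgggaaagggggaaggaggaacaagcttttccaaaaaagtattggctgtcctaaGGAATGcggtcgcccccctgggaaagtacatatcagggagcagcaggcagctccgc
Tpm2, chr4:43523555-43523804, minus strand: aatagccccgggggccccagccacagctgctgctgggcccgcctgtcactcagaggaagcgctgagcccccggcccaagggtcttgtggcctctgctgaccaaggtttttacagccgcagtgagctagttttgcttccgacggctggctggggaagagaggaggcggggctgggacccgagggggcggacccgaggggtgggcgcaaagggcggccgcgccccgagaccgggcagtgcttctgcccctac
Tpm1 held an M-CAT motif 56 bases upstream of its start, on the reverse strand (GGAATG), and Tpm2 held none of the capitalised motifs in this window. M-CAT motifs were found in 4 of 9 members (Acta1, Tnnt2, Tnnc1 and Tpm1), and in 12.6% of all windows. A MEF2 site was found in Ttn alone of the members, 166 bases upstream, and in 2.92% of all windows. E-boxes (CANNTG) were in 8 of 9 members and 66.2% of windows, GC boxes (GGGCGG) in 3 and 32.7%, and AGATAA in 1 and 9.99%. Both strands were searched, for a gene with several windows any of them counted, and 0 matches overlapped another.

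Ttn, the gene of titin, was measured by 4 probes that agreed. The brightest was at 6.60 and 7.40 in KO hearts and 3.30 and 6.70 in WT hearts, a difference of 2.003 (SE 1.22, 95% interval -1.27 to 5.28, limma adjusted p = 0.740). Over the 4 probes the difference was 1.84 to 2.27, and WT replicate 1 was 3.59 to 4.32 below the mean of the other 3 arrays. The probe with the accession NM_028004 behaved as the 3 with NM_011652, at -0.21 and 0.72 in KO and -4.05 and 0.04 in WT. Without WT replicate 1 the brightest probe differed by 0.30.

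**Figure D3:**
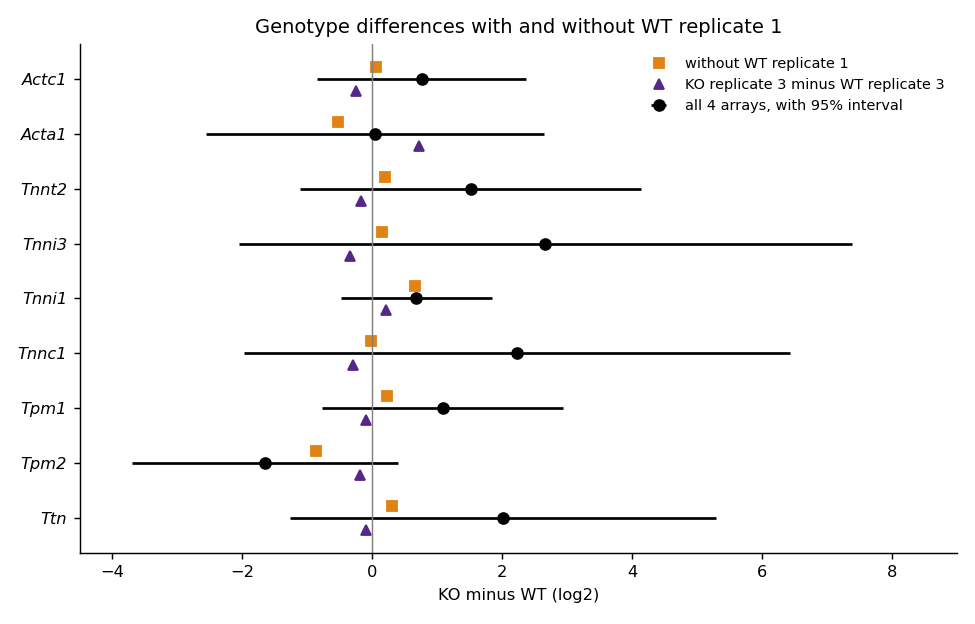
KO minus WT difference of each gene (log2) with all 4 arrays and its 95% interval from limma (circles), without WT replicate 1 (squares), and for KO replicate 3 minus WT replicate 3 (triangles). All 9 intervals include 0, and for the 6 adult genes the squares and triangles lie between -0.34 and 0.30.

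The balance of fetal-type over adult-type isoforms was compared between arrays as the difference of their log2 levels on the same array. Such a difference joins 2 probes, so its own size has no meaning and only its shift between arrays is read. A total of 4 such measures were tested by an exact two-sided permutation test, whose smallest p with 2 against 2 arrays is 0.333. After Benjamini-Hochberg adjustment over the 4, each exact permutation p was 1.

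Tnni1 minus Tnni3 was -10.64 and -10.72 in KO hearts and -6.20 and -11.18 in WT hearts. The KO arrays were alike, and WT replicate 1 stood far above all others. Tnni3 made up that gap, with 5.02 between the WT arrays, while Tnni1 had 0.04 and was not well above background on WT replicate 1. The difference between genotypes was -1.98 (exact permutation p = 1), and 0.51 without WT replicate 1.

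Tpm2 minus Tpm1 was -5.00 and -7.02 in KO and -1.65 and -4.91 in WT, so both KO arrays were below both WT arrays. The difference was -2.73 (exact permutation p = 0.333), -1.10 without WT replicate 1 and -0.09 between the arrays numbered 3. These values rest on the brightest probes, and the Tpm1 probes disagreed. With the mean of the probes of each gene the difference was -1.42 (exact permutation p = 0.667). Acta1 minus Actc1 was -3.75 and -6.82 in KO and -4.43 and -4.71 in WT. The WT arrays were alike here and the KO arrays lay on either side of them. The difference was -0.72 (exact permutation p = 1), which was 0.82 without KO replicate 4. None of the 3 isoform pairs passed the test, which could not go below 0.333.

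**Figure D4:**
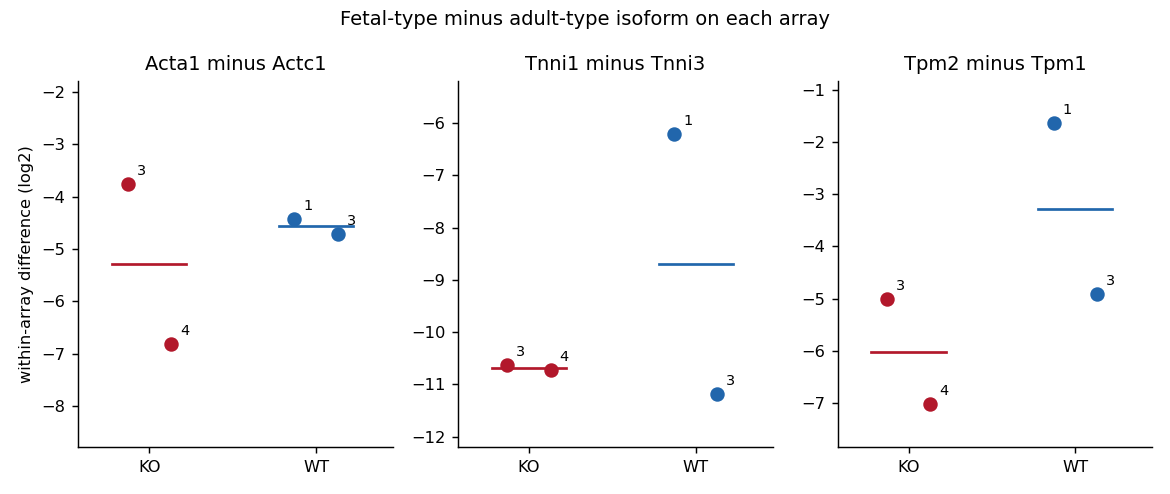
Log2 level of the fetal-type isoform minus that of the adult-type isoform on each array, for the actins, troponins I and tropomyosins, with KO at the left and WT at the right of each panel, replicate numbers beside the points and lines at the genotype means. For the actins the KO arrays lie on either side of the WT arrays, and WT replicate 1 is highest for troponin I and the tropomyosins.

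The adult members moved with other cardiomyocyte genes. The median level of the 18 cardiomyocyte markers outside the thin filament was 6.33 and 7.19 in KO and 1.43 and 6.58 in WT, and WT replicate 1 was lowest for 18 of 18. Their summed level was 10.38 to 11.15 in KO and 6.56 to 10.57 in WT (log2). Against that median on the same array, Tnni3 stood at -0.21 and -0.09 in KO and 0.01 and -0.12 in WT, a range of 0.22 over all 4 arrays. Tnnc1 spanned 1.01. Actc1 stood at 1.22 and 0.95 in KO and 4.95 and 1.21 in WT, so on WT replicate 1 it was low by less than the marker median was. The same held for Tpm1 (4.09 on WT replicate 1, 0.60 to 0.79 elsewhere), Tnnt2 (2.61, and 0.04 to 0.19) and Ttn (1.87, and 0.12 to 0.28). These values rest on the brightest probes, and the Tpm1 probes disagreed. The part of a ceiling at high signals in them was not tested. The member median minus the marker median differed by -1.02 between genotypes (exact permutation p = 0.667), and by -0.03 without WT replicate 1. The member median was the level of Tnni3 on both KO arrays and WT replicate 3, but of Ttn on WT replicate 1. The -1.02 thus sets different genes against each other, and Tnni3 itself stayed level with the markers.

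Markers of other cells differed between the arrays too, and their part in the results was not tested. As for the adult members, 10 of 10 endothelial markers had a higher mean in KO, with WT replicate 1 lowest for 8. Their medians were 2.22 and 3.60 in KO and 2.06 and 3.10 in WT, and their summed levels 7.40 to 7.73 in KO and 6.49 to 7.49 in WT. Of 6 pericyte markers 5 had a higher mean in KO, with medians of 2.09 and 2.49 in KO and -0.68 and 1.93 in WT and summed levels of 5.05 to 5.06 in KO and 4.42 to 4.92 in WT. Some lists were split, with a higher mean in KO for 4 of 8 fibroblast, 2 of 6 neutrophil and 2 of 5 atrial markers tested. Other lists ran against the adult members. Of 7 myofibroblast markers 7 had a lower mean in KO, with medians of 1.70 and -1.89 in KO and 3.78 and 2.51 in WT, and summed levels of 4.70 to 6.76 in KO and 6.77 to 7.41 in WT. Of 11 macrophage markers measured 11 had a lower mean, with medians of 2.66 and 0.37 in KO and 3.14 and 2.36 in WT and summed levels of 5.54 to 6.41 in KO and 6.84 to 7.56 in WT. Both medians were highest on WT replicate 1 and lowest on KO replicate 4, as were Tpm2 and 23.5% of all features. All 6 proliferation markers had a lower mean in KO, each highest on WT replicate 1 and lowest on KO replicate 4, with medians of 0.68 and -3.36 in KO and 2.27 and 0.64 in WT. All 3 erythroid markers measured had a lower mean in KO and highest on WT replicate 1. The smooth muscle list (7 genes, 3 with a higher and 4 with a lower mean in KO) had medians of 2.53 and 2.17 in KO and 3.88 and 2.41 in WT. That median too was highest on WT replicate 1 and lowest on KO replicate 4, as Tpm2 was. Its summed levels were 6.23 to 6.35 in KO and 6.46 to 7.65 in WT. The skeletal muscle markers Myh1, Myh2, Actn3 and Mylpf were well above background on at most 1 array each and were not tested, and the 10 of 14 that were had medians of -1.73 and -1.55 in KO and -3.36 and -1.19 in WT. The summed level of those 10 was 4.57 to 4.87 in KO and 2.14 to 4.25 in WT. That list holds Ckm, Tnni2, Tnnc2 and Tnnt3, and the heart also makes Ckm.

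**Figure D5:**
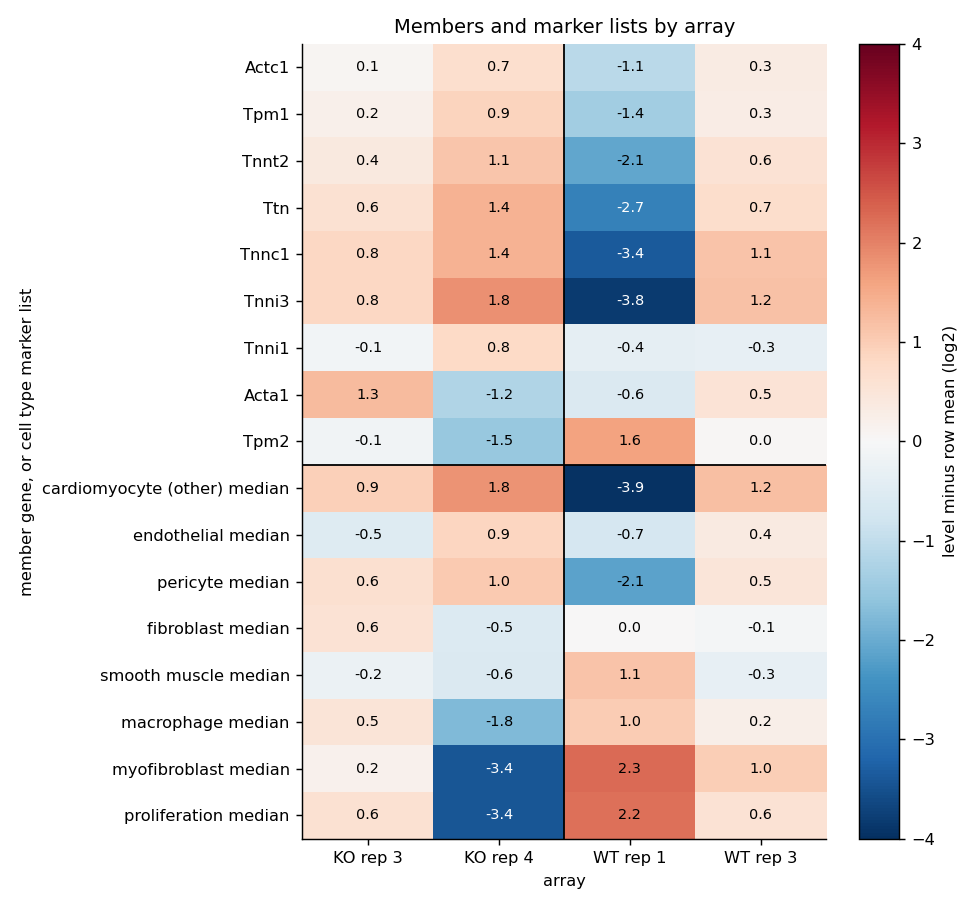
Log2 level minus the row mean for each member (above the line) and for the median of each marker list (below it), with KO arrays at the left and WT arrays at the right. The 6 adult members and the other cardiomyocyte markers are lowest on WT replicate 1, where Tpm2 and the smooth muscle, myofibroblast, macrophage and proliferation medians are highest.

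Genes that work with the thin filament and titin were described in 5 lists, and 0 genes of any list were called in limma. Of 17 genes of thin filament assembly 15 had a higher and 2 a lower mean in KO, with a median difference of 1.41, beside 0.07 over all features. Lmod3, a leiomodin that starts actin filaments, was at 3.74 and 4.19 in KO and -1.43 and 3.24 in WT, and differed by 0.72 without WT replicate 1. Nebl, the Z-disc protein nebulette, was not well above background on WT replicate 1 and differed by 2.17 (SE 1.21), and by 0.53 without that array. Wdr1, which speeds actin disassembly, differed by -1.10 (SE 0.51), and by -0.63 without WT replicate 1. WT replicate 1 was the lowest array for 13 of the 17.

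Of 20 titin partners and regulators 19 had a higher mean in KO, with a median of 2.03, and WT replicate 1 was lowest for 19. Cmya5, the costamere protein myospryn, was at 4.53 and 5.61 in KO and 2.72 and 3.69 in WT, a difference of 1.86 (SE 0.58) with an unadjusted p = 0.0281 in limma and adjusted p = 0.740. Its genotypes did not overlap, and the difference was 1.32 to 2.41 with any 1 array left out. Rbm20, which controls titin splicing, was at -2.19 and -1.19 in KO and -5.75 and -2.13 in WT, where WT replicate 1 was not well above background. Without that array it differed by 0.44.

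The isoforms of thin filament genes used mainly in other muscles or in all cells ran the opposite way, 2 with a higher and 8 with a lower mean in KO of 10, and a median of -0.58. Tnni2, the fast skeletal troponin I, was at -0.97 and -0.90 in KO and 0.52 and 0.03 in WT, a difference of -1.21 (SE 0.34, unadjusted p = 0.0215 and adjusted p = 0.740 in limma). Tnnc2, the fast skeletal troponin C, not well above background on WT replicate 1, differed by 1.05 (SE 0.50), and by 0.50 without that array. Actg2, a smooth muscle actin, differed by -2.75 (SE 1.31), and by -1.01 without WT replicate 1. The kinases and phosphatases had 8 higher and 2 lower of 10, with a median of 0.50. Among them Ppp2r3a, a subunit of a protein phosphatase, differed by 1.83, and by 0.36 without WT replicate 1. Ppp1r12b, a subunit of myosin phosphatase, was not well above background on WT replicate 1 and differed by 1.81, and by 0.34 without that array. On KO replicate 4 the kinase gene Pak1 was at background level, and it differed by -1.19, and by -0.22 without that array. Of 8 fetal genes outside the thin filament 6 were higher and 2 lower, with a median of 0.26. The adhesion gene Ncam1 differed by -1.87, by -0.75 without WT replicate 1 and by -0.62 with the mean of its probes. The T-type calcium channel gene Cacna1h differed by 1.45, and by 0.71 without either WT replicate 1 or KO replicate 4. The fetal light chain Myl4 differed by 0.25, and by 0.049 without WT replicate 1.

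Genes with the most similar profile were taken by Euclidean distance of centred log2 levels over the 4 arrays, among 12911 genes well above background on all of them. With so few arrays many genes lie close. Nearest to the member median were Sirt5 (0.06), Mtus2 (0.07), Tmem8b (0.10), Hadhb (0.10) and Gatd3a (0.10). That median follows no single member, being Ttn on WT replicate 1 and Tnni3 on the other arrays. Nearest to Tpm2 were Vdr (0.11), Tagln (0.12) and Slc11a1 (0.14), and nearest to Tnni1 were BC065397 (0.10), Mgme1 (0.14) and Gng7 (0.14). Acta1 had no gene as near, with Lman1l (0.38), Itgbl1 (0.43) and Csprs (0.56).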

How the data were processed

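Agilent Feature Extraction made the spot values; its version is 11.0.1.1 per the file headers and 9.1 per the submitters' processing notes. The deposited processed intensity had local background taken off and spatial trends removed array by array, per the file headers. Spot flags (other values) were used unchanged, per the file headers. The deposited table of log2 values has a median of 6.11 in each column, and its normalization is unstated. Its differences were nearly those found after quantile normalization, at 0.41 for Actc1 and 2.50 for Tnni3 in both, so these 2 alternatives are not separate checks.

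Control and outlier spots were dropped, repeat spots of a probe averaged, and each array's 75th percentile set to 0 on the log2 scale. Of 39429 probes, 27234 were named through RefSeq (GRCm38.p6). A probe had to be well above background on 2 or more of the 4 arrays, and the brightest stood for its gene. KO was set against WT with limma 3.58.1 in R 4.3.3 (lmFit and eBayes, two-sided, Benjamini-Hochberg, threshold 0.05). Intervals are limma's. The same fit was also run on data simulated from the fitted means and spread, with results not reported here. Members, gene lists and the naming rule (the 3 smallest p per list, the nearest profiles) were chosen with earlier results of these data known; 1 gene that the rule names is not reported here.

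Alternatives changed the scaling, the filter on dim probes, the probe rule, the eBayes options and the threshold, used the deposited values, or dropped single arrays. Normexp on median signals and the arrays numbered 3 alone were added once the data had been seen.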

Additional observations from a re-analysis of the deposited data

How the results depend on the processing

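Over 583 values from 14 alternatives to 48 results, 557 kept their direction and side of the threshold and 26 changed sign, 15 of them when 1 array was left out. This count says little about stability, because size was not scored. Tnni3 went from 2.66 to 0.15 without WT replicate 1 and counts as kept. Changing the eBayes options or dropping the filter left the differences of the members as they were, and the exact permutation test could not pass the threshold. No feature was called by limma under any alternative with a test, which leaves out the arrays numbered 3 alone, at 1 array per genotype. Acta1 differed by -0.070 with scaling by the array median, and with the mean of probes Tpm1 differed by -0.14 and Lman1l by 0.42. Between the arrays numbered 3 alone, the differences were -0.25 for Actc1, -0.17 for Tnnt2, -0.34 for Tnni3, -0.30 for Tnnc1, -0.10 for Tpm1, -0.10 for Ttn, 0.96 for Acta1 minus Actc1 and 0.55 for Tnni1 minus Tnni3. With each array left out in turn, the differences ranged from -1.20 to 1.28 for Acta1, -0.029 to 4.47 for Tnnc1, -1.19 to 0.86 for Lman1l, -0.97 to 1.25 for Itgbl1, -0.84 to 1.06 for Csprs, -1.94 to 1.08 for Nppa, -0.90 to 1.44 for Nppb, -2.25 to 0.82 for Acta1 minus Actc1, and -4.47 to 0.51 for Tnni1 minus Tnni3. A genotype left with 1 array was assumed to vary like the other. Features with an unadjusted p under 0.05 in limma numbered 633 with all arrays, 380 without WT replicate 1 and 4251 without WT replicate 3. The cause of these changes was not tested.

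No paired analysis was possible, because the labels tie no KO array to a WT array. The number 3 occurs in both genotypes but is not stated to mark a pair. The slide could not be a block, since there was 1. Normexp on mean signals was not run, as median signals were the column at hand. Tnni1 has no value where a probe must be well above background on all 4 arrays.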

Other observations

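The natriuretic peptide genes Nppa and Nppb, which the stressed ventricle makes, were looked at after their values were seen, because Acta1 is induced beside them in rodent hearts under load. Nppa was at 7.03 and 4.01 in KO hearts and 5.18 and 6.71 in WT hearts, and Nppb at 5.07 and 2.73 in KO and 2.47 and 4.79 in WT. For Nppa the arrays stood in the same order as for Acta1, with KO replicate 3 highest and KO replicate 4 lowest. For Nppb the highest array was also KO replicate 3, but the lowest was WT replicate 1. KO minus WT was -0.43 for Nppa (SE 1.18, limma adjusted p = 0.898) and 0.27 for Nppb (SE 1.16, limma adjusted p = 0.935).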
